A study of Mus musculus and Homo sapiens with 12 samples.

Results

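Integrin subunits and laminin chains were followed in 2 models of pancreatic ductal carcinoma that metastasizes to the liver. These families were chosen with earlier results of these data known, as were the other gene lists used below. Within them members were taken by symbol alone, as every integrin alpha subunit, integrin beta subunit and laminin alpha, beta or gamma chain listed. This gave 37 of 23201 genes in the mouse table (18 alpha subunits, 8 beta subunits and 11 laminin chains) and 37 of 18190 genes in the human table (17, 8 and 12). In capitals these are 38 symbols, 36 of them in both tables. All 37 had an adjusted p in each table, so no listed member was left without one by the authors' filter on low counts. ITGAX was listed for the mouse only and LAMB4 for the human line only. Whether genes were removed before the listing is not stated.

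The 4 groups had 3 biological replicates each. KPC LM2 is the second generation of a mouse pancreatic ductal carcinoma line selected for liver metastasis, and KPC is its parental line. PANC1 LM3 is the third generation of the established human line PANC1 after the same kind of selection, and PANC1 is its parental line. All 4 were labelled wild type, and the labels name no drug and no engineered allele. For each group 500000 cells were placed in the spleen, and the tumours in the liver were collected on day 21. The labels name 1 selected derivative per model, do not give the host strain, and do not say whether each replicate came from its own animal, so the p-values measure the spread between these samples. They give tumours as the source of RNA while the sample titles name cells, and whether host cells are in the samples is not stated.

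Integrins are dimers of 1 alpha and 1 beta subunit that span the cell membrane, bind the extracellular matrix outside and couple to actin or keratin filaments inside. Laminins are trimers of an alpha, a beta and a gamma chain and form the sheet of the basement membrane on which epithelial cells sit. The epithelial laminin that holds the α3 and β3 chains anchors cells through the integrin α6β4 of hemidesmosomes and through α3β1.

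The data are 1 comparison table per model, without a value per library. Which of the 2 groups is on top of the fold change is not stated in either table. A positive or negative value below is thus the sign in the table, and it is tied neither to a selected line nor to a parental line. Equal signs in the mouse and the human table need not mean the same direction of change. For that reason no difference between the models was tested, and only relations among members within a table are compared. Values are log2 fold changes unless said otherwise, and a gene is said to be called where its adjusted p by the authors' Wald test was under 0.05. A value after ± is the standard error (SE) listed by the authors, and a level is their mean over all libraries of a table of the counts divided by size factors, as the column is read here.

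Lamb3, which encodes the laminin β3 chain, is shown by its promoters because it was among the largest positive values of the more abundant members in both models. RefSeq (GRCm38.p6) gives 2 windows for it, on the plus strand of mouse chromosome 1, each from 250 bases before a start to 50 bases after it. They are chr1:193301744-193302043 and chr1:193301993-193302292 and share 51 bases. Capitals mark matches to CAGGTG or its reverse complement CACCTG, the letters bound by ZEB and SNAIL family repressors. The other motif searched on both strands was TGANTCA, the letters bound by AP-1 factors, and the motifs can overlap where the CA that ends one begins the other.
Lamb3 start A: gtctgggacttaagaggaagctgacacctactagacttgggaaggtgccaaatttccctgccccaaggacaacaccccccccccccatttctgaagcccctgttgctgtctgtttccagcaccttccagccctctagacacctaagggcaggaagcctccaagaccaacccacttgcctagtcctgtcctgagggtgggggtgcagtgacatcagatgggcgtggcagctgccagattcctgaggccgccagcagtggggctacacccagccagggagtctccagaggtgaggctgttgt
Lamb3 start B: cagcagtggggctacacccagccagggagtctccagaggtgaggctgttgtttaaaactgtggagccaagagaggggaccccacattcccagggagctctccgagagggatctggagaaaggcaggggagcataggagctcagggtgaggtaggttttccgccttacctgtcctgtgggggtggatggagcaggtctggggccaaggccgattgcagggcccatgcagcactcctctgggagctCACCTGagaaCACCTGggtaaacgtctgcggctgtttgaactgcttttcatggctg
The window at start B holds 2 such matches, one beginning 6 bases before the start and one 4 bases after it, and the window at start A holds none. TGANTCA is in neither. Over all 32851 mouse windows of the table, 20.2% hold CAGGTG and 7.81% hold TGANTCA. Of the 37 mouse members 23 had a window in the table, 26 windows in all, of which 8 hold CAGGTG and 3 hold TGANTCA. A match describes letters and does not show a bound site.

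In the mouse model the β3 chain gene of epithelial laminin and the β4 integrin gene were positive, and the β3 integrin gene and several genes at low counts were negative. Of the 37 members 11 were called, 5 positive and 6 negative, which is 29.7%, against 10.4% of all 20050 genes tested. The split by sign followed the level, as it did for all genes. Of 18 members at a level of 64 or more, 5 were called positive and 1 negative, where 10.6% and 2.11% of all genes at that level were. Of 19 members under 64, none was called positive and 5 were called negative, where the shares of all such genes were 1.23% and 6.96%. The median log2 fold change was 0.22 for the 18 members and 0.22 for all genes at 64 or more. Under 64 it was -1.37 for the 19 members and -1.13 for all genes. Recentring the table on the genes at 64 or more, a shift of 0.22, left 23.5% of all calls positive, against 55.7% as listed.

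**Figure D1:**
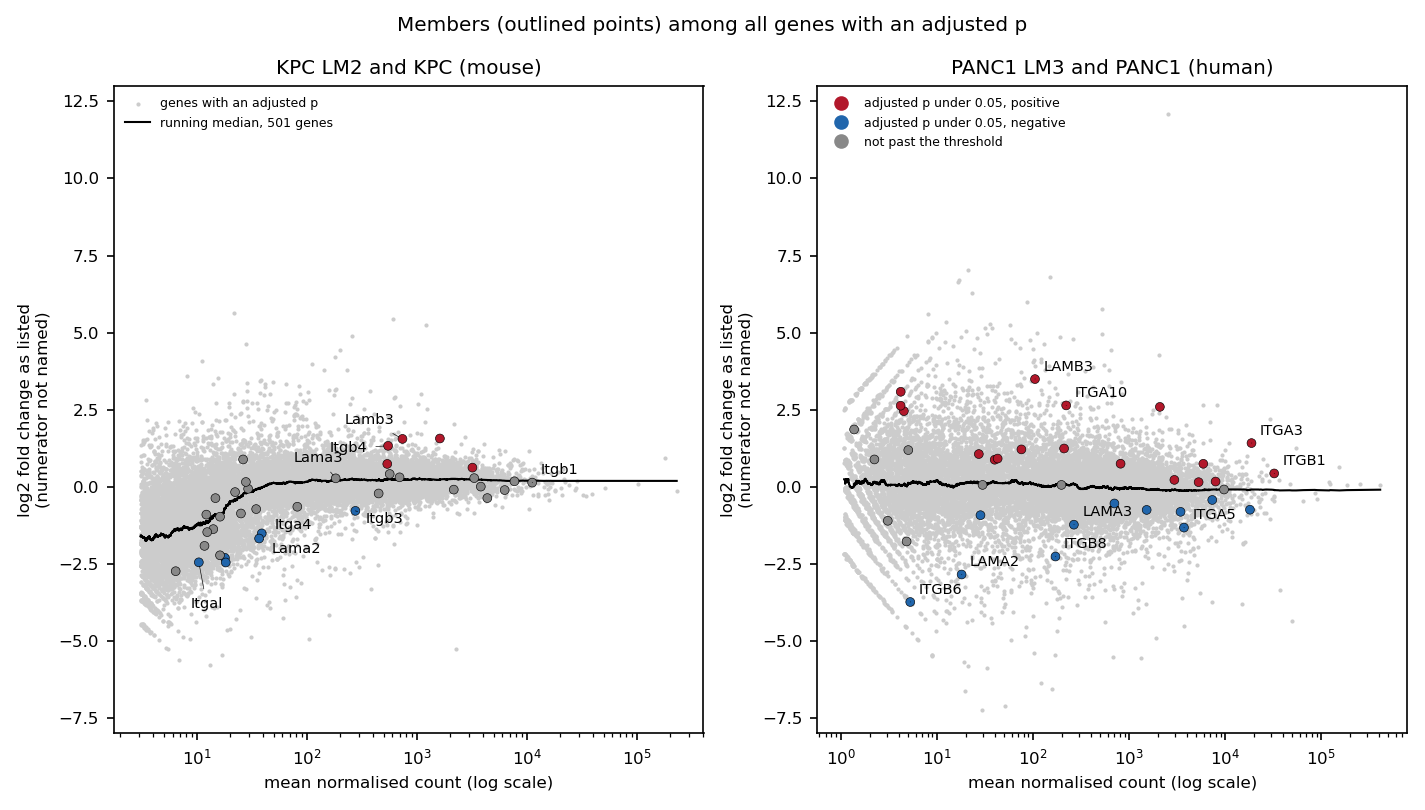
Log2 fold change as listed against the level (log scale), for all genes with an adjusted p (grey points), their running median (line) and the members (outlined points, red and blue where called). In the mouse panel the median of genes under 64 lies at -1.13, and 17 of 19 members there are negative; in the human panel the line stays near 0.

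In the human model most members were called, with both signs among the abundant ones. The count was 29 of 37, 18 positive and 11 negative, which is 78.4%, against 52.5% of all 17838 genes tested, where 26.0% were positive and 26.5% negative. At a level of 64 or more 20 of 22 members were called, against 69.3% of all genes, and under 64 it was 9 of 15, against 23.5%. The median log2 fold change of the members was 0.22, and that of all genes tested was -0.002. The median absolute value was 1.06 for members and 0.47 for all genes. Recentring moved this table by only -0.03.

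**Figure D2:**
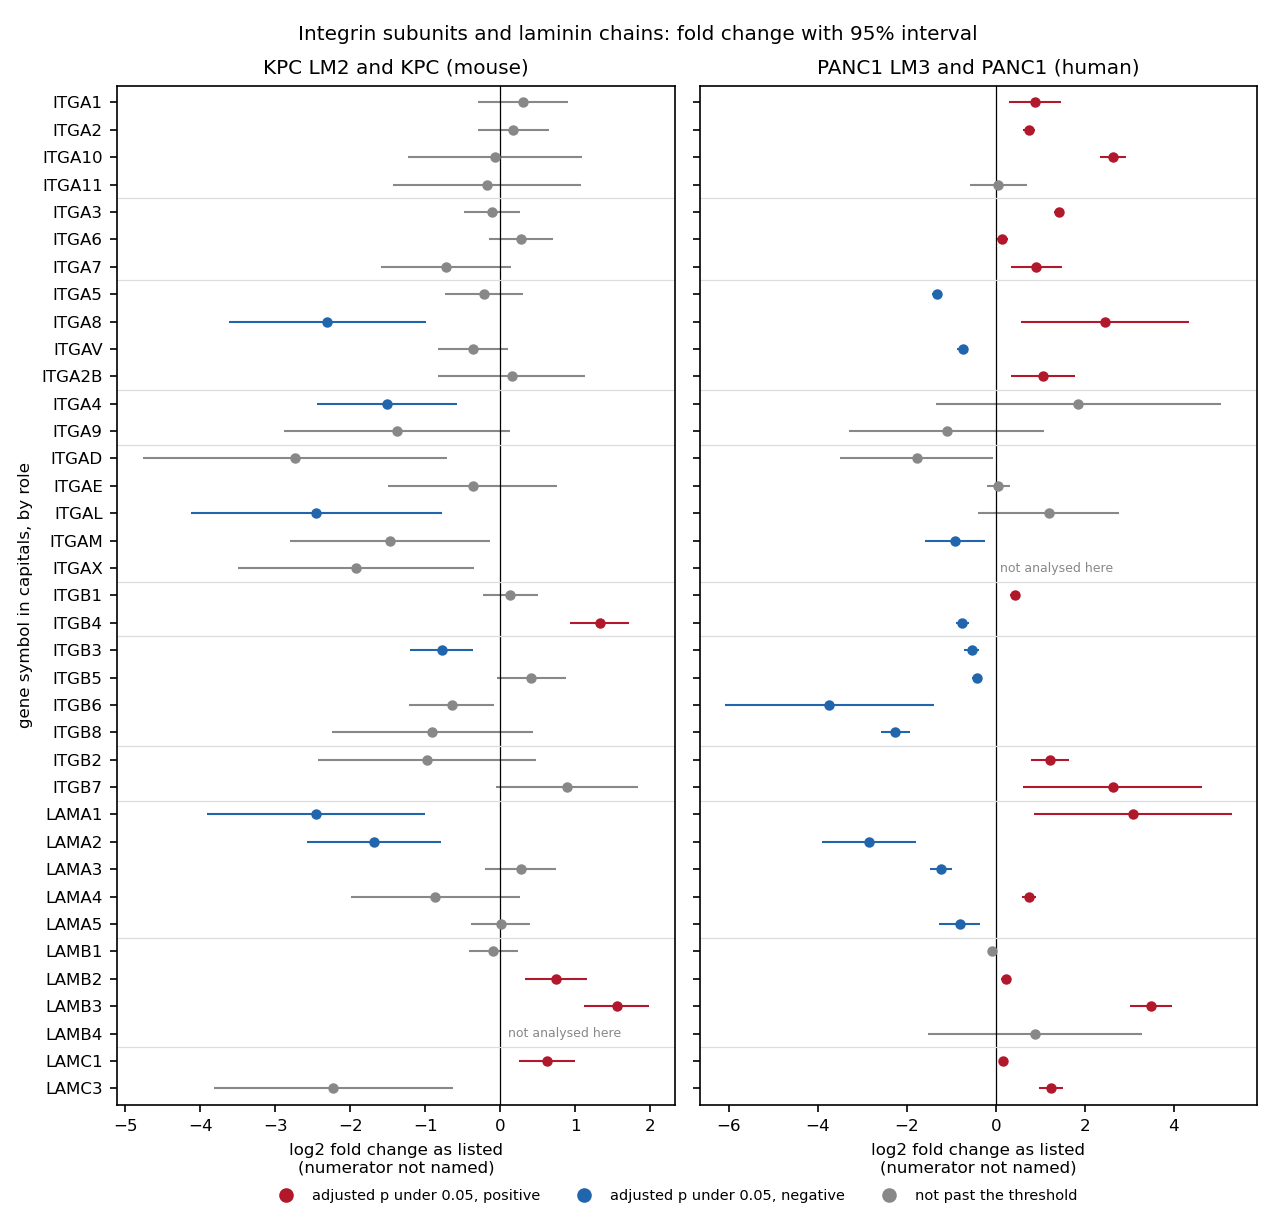
Log2 fold change as listed (points) with its 95% interval (bars) for the members named here, by role, in the mouse table (left) and the human table (right). Red and blue mark an adjusted p under 0.05. The β3 laminin chain is red in both panels, while ITGB4 is red in the mouse and blue in the human panel.

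The α3 and β3 chain genes of epithelial laminin did not share both sign and call in either model. Lamb3, which encodes β3, had a value of 1.55 ± 0.22 in the authors' deposited table for the mouse, with a level of 742 and a Wald adjusted p of 7.61e-10. This is a difference of 2.94-fold (95% interval 2.17 to 3.96). Lama3 encodes the α3 chain, which carries the integrin-binding domains. Its value in the authors' deposited table was 0.27 ± 0.24, an interval of -0.20 to 0.75 that does not meet that of Lamb3 (Wald adjusted p = 0.452).

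In the human table the α3 chain gene was called with the sign opposite to that of the β3 chain gene. LAMB3 was at 3.49 ± 0.24 in the authors' deposited table, an 11.3-fold difference (95% interval 8.09 to 15.7) with a Wald adjusted p of 1.57e-45. Its level was only 105. LAMA3 was at -1.23 ± 0.12 in the authors' deposited table (Wald adjusted p = 4.62e-23).

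The β4 integrin subunit is the partner of α6 in hemidesmosomes, where its long tail binds plectin. Itgb4 was listed at 1.33 ± 0.20 in the authors' deposited table for the mouse, 2.51-fold (95% interval 1.91 to 3.30), with a Wald adjusted p of 9.33e-09. It had the sign of Lamb3. In the human table ITGB4 had the sign opposite to LAMB3, at -0.75 ± 0.08 in the authors' deposited table (Wald adjusted p = 7.51e-21). Of the exonic bases of mouse Itgb4, 7.66% overlap an antisense gene, and the strand setting of the counting is not given.

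Of 3 α subunits that bind laminin, 3 were called positive in the human table. There 26.0% of all genes, and 32.7% of those at a level of 64 or more, were called positive. In the mouse 0 were called in either direction, where 10.4% of all genes were. ITGA3, whose dimer with β1 binds the α3 and α5 laminins, was at 1.42 ± 0.05 in the authors' deposited table for PANC1, with a level of 18868 and a Wald adjusted p of 1.26e-162. ITGA7, best known from muscle, was at 0.92 ± 0.29 in that authors' deposited table, with a level of 43.0. ITGA6 was called at a difference of only 1.11-fold (95% interval 1.02 to 1.21), 0.15 ± 0.07 in the authors' deposited table with a Wald adjusted p of 0.0427. The common β1 subunit gene ITGB1 was at 0.43 ± 0.06 in the authors' deposited table for PANC1 (Wald adjusted p = 2.13e-12). Mouse Itga3 and Itga6 had values of -0.11 ± 0.19 and 0.28 ± 0.22 in the authors' deposited table, and Itga7 had one of -0.72 ± 0.44. Mouse Itgb1 was at 0.14 ± 0.19 in the authors' deposited table and turned to -0.08 on recentring, so its sign is not settled. As scaled by the authors, the 95% intervals limit a difference to at most 1.40-fold for Itga3, 1.63-fold for Itga6 and 1.42-fold for Itgb1. On recentring Itga3 was at -0.33, so its limit is wider under that scaling.

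**Figure D3:**
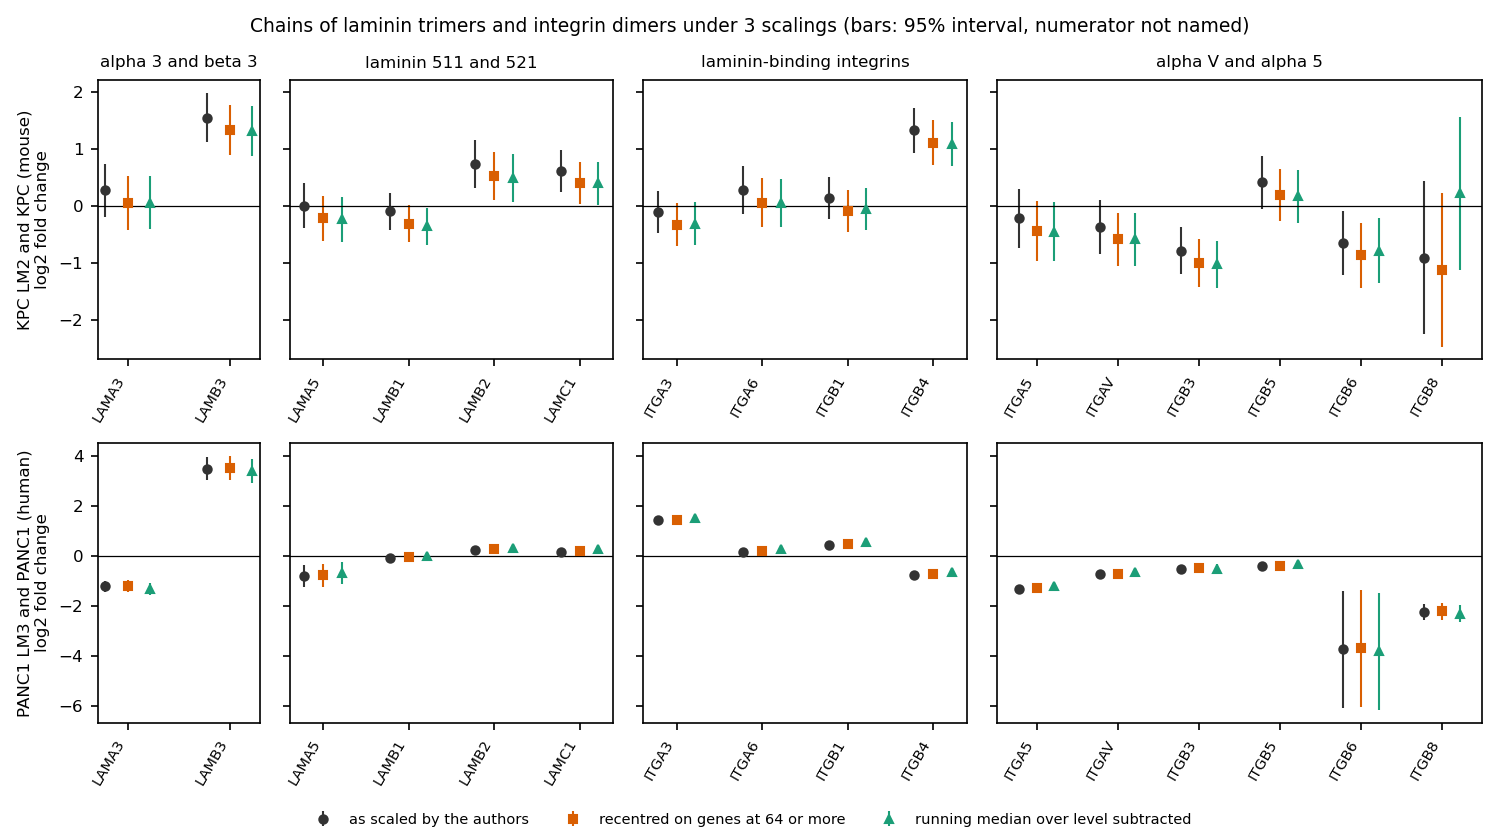
Log2 fold change with its 95% interval in the mouse (top) and human (bottom) table. Panels show laminin chains α3 and β3, laminin chains α5, β1, β2 and γ1, laminin-binding integrins, and integrin dimers of α5 and αV. Values are as scaled by the authors (circles), recentred (squares) and after a running median over level was subtracted (triangles). LAMB3 lies apart from LAMA3, a gap that recentring cannot change because it moves every gene by the same amount. ITGAV, ITGB3, ITGB5, ITGB6 and ITGB8 are negative in PANC1 under each scaling.

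Other laminin β and γ chain genes named here had small values or mixed signs. Lamb2 and Lamc1, of the β2 chain and the widespread γ1 chain, were listed at 0.74 ± 0.21 and 0.62 ± 0.19 in the authors' deposited table for the mouse. Both were called, with Wald adjusted p-values of 0.0107 and 0.0176, and both calls ended when the table was recentred, at adjusted p-values of 0.0873 and 0.142 by the recomputed Wald test. Over the alternatives tried the adjusted p ran from 0.00719 to 0.177 for Lamb2 and from 0.0125 to 0.252 for Lamc1. In PANC1 the authors' deposited table had LAMB2 at 0.22 ± 0.05 and LAMC1 at 0.17 ± 0.05, both called at differences of 1.17-fold and 1.12-fold. LAMB1, the β1 chain, was called in neither table, at -0.09 ± 0.17 for the mouse and -0.09 ± 0.05 for PANC1 in the authors' deposited tables; its sign in PANC1 was lost, at 0.00, once the level median was subtracted. LAMC3 of the γ3 chain was at 1.241 ± 0.13 in the authors' deposited table for PANC1, a 2.36-fold difference, while mouse Lamc3 was at -2.22 ± 0.81 with a level of 16.2 and not called.

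The laminin α chain genes, which set the receptor preference of the trimer, took both signs in PANC1. LAMA4, the chain typical of vessel walls, was at 0.75 ± 0.08 in the authors' deposited table with a level of 818. LAMA5, the main α chain of adult epithelial basement membranes, was at -0.81 ± 0.23 in the authors' deposited table with one of 3446 (Wald adjusted p = 0.00124). LAMA2, the α chain of muscle basement membrane, had a value of -2.85 ± 0.54 and LAMA1, of early embryonic basement membrane, one of 3.08 ± 1.13 in the authors' deposited table, at levels of only 18.1 and 4.21. Mouse Lama5 did not depart from 0, at 0.00 ± 0.20 in the authors' deposited table, and was negative, at -0.21, on recentring. Lama2 and Lama1 were both called negative in the mouse, with values of -1.68 ± 0.46 and -2.46 ± 0.74 in the authors' deposited table and levels of 36.8 and 18.3. The Lama2 call stood after the level median was subtracted (adjusted p = 0.0107 by the recomputed Wald test, the highest of its alternatives), and the Lama1 call did not (adjusted p = 0.166, also the highest, the lowest being 0.00843). Lama4 was not called in the mouse, at -0.87 ± 0.58 in the authors' deposited table.

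Genes of integrins that read the RGD motif of ligands such as fibronectin and vitronectin took both signs in PANC1. Of 4 such α subunit genes 2 were called negative and 2 positive, where 26.5% and 26.0% of all genes were. ITGA5, the α subunit of the main fibronectin receptor, was at -1.32 ± 0.06 in the authors' deposited table, a 2.50-fold difference (95% interval 2.32 to 2.71) with a Wald adjusted p of 2.03e-116. Its only partner is β1, whose gene ITGB1 had the other sign. ITGAV, of the αV receptors for vitronectin and latent TGF-beta, was at -0.75 ± 0.06 in the authors' deposited table with a level of 18186 (Wald adjusted p = 1.26e-33). All 4 β subunits that pair with αV apart from β1 were negative with it and called, where 26.5% of all genes were called negative. ITGB8, which holds latent TGF-beta on the cell surface, was at -2.26 ± 0.17 in the authors' deposited table, 4.80-fold (95% interval 3.83 to 6.01). ITGB6, the epithelial activator of latent TGF-beta, was at -3.74 ± 1.20 in the authors' deposited table, with a level of only 5.29. ITGB3 and ITGB5 had values of -0.54 ± 0.09 and -0.43 ± 0.05 in the authors' deposited table. ITGA8, the nephronectin receptor subunit, and ITGA2B, the platelet fibrinogen receptor subunit, were positive, with values of 2.45 ± 0.97 and 1.06 ± 0.36 in the authors' deposited table and levels of 4.54 and 27.4.

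The β3 integrin gene was the one αV partner called in the mouse. Itgb3 was at -0.78 ± 0.21 in the authors' deposited table, a 1.72-fold difference (95% interval 1.29 to 2.29) with a Wald adjusted p of 0.00612. It passed the threshold of 0.05 in each alternative tried that did not also ask for an absolute log2 fold change over 1. Itgav itself was at -0.37 ± 0.24 in the authors' deposited table (Wald adjusted p = 0.295), and Itga5 at -0.22 ± 0.26. Itgb5 was at 0.41 ± 0.23 and Itgb6 at -0.65 ± 0.29 in the authors' deposited table, neither called. Itgb8 was at -0.90 ± 0.69 in the authors' deposited table with a level of 12.2, and its sign turned after the level median was subtracted. Itga8 was called at -2.31 ± 0.67 in the authors' deposited table with a level of 17.98, and the call ended under that subtraction (adjusted p = 0.158 by the recomputed Wald test, the highest of its alternatives, the lowest being 0.0053).

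Of 4 collagen-binding α subunits 3 were called in PANC1, all positive. There 26.0% of all genes, and 32.7% of those at a level of 64 or more, were called positive. In the mouse 0 were called in either direction, where 10.4% of all genes were. ITGA10, known from cartilage, had the largest value of the group, 2.64 ± 0.15 in the authors' deposited table with a level of 222, a 6.23-fold difference (95% interval 5.08 to 7.64). ITGA2, the epithelial and platelet collagen receptor, was at 0.75 ± 0.06 in the authors' deposited table with a level of 5944 (Wald adjusted p = 6.72e-30). ITGA1 was at 0.88 ± 0.30 in the authors' deposited table with a level of 40.0. ITGA11, of fibroblasts, was at 0.06 ± 0.33 in the authors' deposited table and turned negative once the level median was subtracted. ITGA2 and ITGA1 are neighbours in the mouse genome, with no coding gene between them. Mouse Itga2 was at 0.18 ± 0.24 in the authors' deposited table, -0.04 on recentring, and Itga1 at 0.31 ± 0.31.

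Leukocyte integrins had low counts in the mouse. The 5 leukocyte α subunit genes and Itgb2, which encodes the β2 partner of all of them but αE, had levels from 6.41 (Itgad) to 16.2 (Itgb2), and all 6 were negative as listed. Only Itgal, the α subunit of LFA-1, was called, at -2.45 ± 0.85 in the authors' deposited table (Wald adjusted p = 0.043), and after the level median was subtracted its adjusted p was 0.52, the highest over the alternatives, of which the lowest was 0.0255. Itgb7, of lymphocyte homing, was at 0.89 ± 0.48 in the authors' deposited table and not called. Itga4, which pairs with β1 or β7 and binds VCAM1, was called at -1.51 ± 0.48 in the authors' deposited table (Wald adjusted p = 0.0226), with a level of 38.9. Its adjusted p stayed between 0.00745 and 0.0359 over the alternatives tried. Itga9, of like ligand range, was at -1.37 ± 0.77 in the authors' deposited table and not called. The share of Itgam exons that overlap another gene of the same strand is 68.7%, and reads from that stretch could belong to either gene. Antisense genes also overlap 8.04% of Itga4 exons, 5.05% of those of Itga8 and 3.86% of those of Lama2. How many reads came from the overlaps is not known, so these values are uncertain.

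Leukocyte markers of the mouse table were mostly negative as well. Of 20 listed, 18 were in the table and 11 had an adjusted p, 9 of them negative and 2 called negative. Both calls, of Lcp1 and Adgre1, ended once the level median was subtracted, at adjusted p-values of 0.343 and 0.141 by the recomputed Wald test. Levels of the 18 ran from 1.03 to 471, with a median of 3.47 and a sum of 613 of which Cd14, at 471, made most, and the pan-leukocyte gene Ptprc was at -1.27 ± 0.51 with 28.9 in the authors' deposited table. The part of leukocytes in these integrin values was not tested, and fewer cells of a type and less RNA per cell cannot be told apart in such samples. Most genes at such levels were negative too, 80.5% of all genes under 64.

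In the human table ITGB2 was called positive at 1.21 ± 0.22 with a level of 76.0 in the authors' deposited table (Wald adjusted p = 8.48e-08). Of the 20 leukocyte markers 11 were in the human table and 10 had an adjusted p, 1 called positive and 2 called negative. The macrophage marker CD68, a lysosomal protein that other cells also make, was the positive one, listed with 1.91 ± 0.07 and a level of 1103 in the authors' deposited table. S100A9 and CORO1A were the negative ones, with values of -3.42 ± 1.51 and -0.87 ± 0.37 and levels of 2.30 and 23.9 in the authors' deposited table. The pan-leukocyte gene PTPRC had a level of 2.26 and a value of -0.08 ± 1.16 in the authors' deposited table. The part of leukocytes in the human values was not tested. ITGAM, a partner of β2, was called with the other sign, -0.92 ± 0.34 in the authors' deposited table. ITGAL and ITGAD were not called, with levels of 5.05 and 4.85, and ITGAE, the E-cadherin receptor subunit, was at 0.06 ± 0.14 with 198 in the authors' deposited table and turned to -0.07 once the level median was subtracted. ITGB7 was called at 2.63 ± 1.03 in the authors' deposited table with a level of 4.20. ITGA4, ITGA9 and LAMB4 had levels from 1.38 to 3.09 and were not called.

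Levels can be compared between members only per length, which was possible in the mouse. Per kilobase of exon, the level was highest for Itgb1, at 2749, followed by Itga3 at 1105 and Itga2 at 1085. Itgav was at 408, Lamc1 at 388, Itga6 at 369 and Lama5 at 336. Lower among the members called positive were Lamb3 at 112, Lamb2 at 88.7 and Itgb4 at 78.2 counts per kilobase, with Lama3 at 17.0. Itgb8 was lowest, at 1.10. The tables list no error for these levels, so the order of neighbours was not tested.

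**Figure D4:**
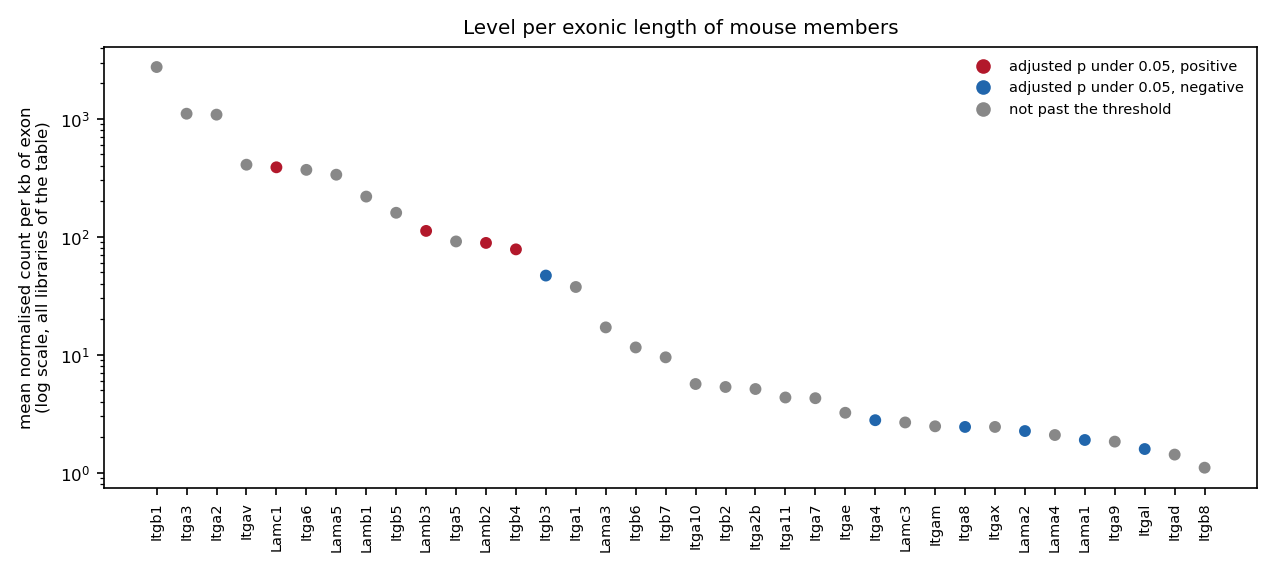
Level per kilobase of exon (log scale) for 36 mouse members in order of level, red and blue where called. Itgb1, Itga3 and Itga2 are highest and are not called; the members called negative other than Itgb3 lie under 3.

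Of the members listed for both models, 9 were called in both, which is 9 of 11 mouse calls and 9 of 29 human calls. As 78.4% of all members were called in the human table, the count is near what that share alone gives. Taken relative to LAMB3 in the same table, LAMB2 and LAMC1 had its sign in both models, and ITGB3 and LAMA2 had the opposite sign in both. ITGB4, LAMA1 and ITGA8 shared the sign of LAMB3 in one model and not in the other. These relations do not depend on which group is the numerator. Under recentring the Lamb2 and Lamc1 calls behind them were lost, and with the level median subtracted those of Itga8 and Lama1 as well.

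Over 4 lists of partner genes 21.2% of the 113 tested in the mouse and 69.2% of the 104 tested in PANC1 were called, beside 10.4% and 52.5% of all genes. With the level median subtracted, the mouse calls of Vcl, Nedd9, Cd63, Cd81, Cd9, Sdc2, Egflam, Spp1, Npnt and L1cam, whose values follow, were lost. Genes that link integrins to the cytoskeleton were called in both directions. In the mouse 7 were called positive and 1 negative of 44 tested. Tns4, a tensin that binds β integrin tails, was at 2.92 ± 0.34 in the authors' deposited table (Wald adjusted p = 8.34e-15), and Tns2 at 1.14 ± 0.25. Nedd9, a docking protein of focal adhesion kinase, was at 0.92 ± 0.24 and the talin-binding protein gene Vcl at 0.55 ± 0.16 in the authors' deposited table, against the zyxin gene Zyx at -0.86 ± 0.30. After recentring, Vcl was at an adjusted p of 0.146 by the recomputed Wald test. In PANC1 12 were called positive and 17 negative of 40. The actin crosslinker FLNC was at 2.71 ± 0.11 and CRKL, PARVB and FERMT1, the epithelial kindlin, at 0.66 ± 0.06, 1.03 ± 0.11 and 2.25 ± 0.29 in the authors' deposited table. TNS3, at -1.61 ± 0.05, ACTN4, at -0.84 ± 0.05, DOCK1, at -0.79 ± 0.06, and TNS2, at -1.16 ± 0.09, had the smallest adjusted p-values among the negative ones in the authors' deposited table. The list medians were 0.12 in the mouse and -0.13 in PANC1, beside -0.08 and -0.002 over all genes.

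Of 16 other laminin receptors and tetraspanins that sit beside integrins, 4 were called positive and 2 negative in the mouse. In PANC1 5 of 16 were called positive and 6 negative. In the authors' deposited table for the mouse the syndecan Sdc1 was at 0.73 ± 0.16 and the tetraspanins Cd81, Cd9 and Cd63 at 1.09 ± 0.28, 0.88 ± 0.23 and 0.55 ± 0.19. The syndecan Sdc2 was at -2.26 ± 0.57 and Bcam, a receptor of the laminin α5 chain, at -0.74 ± 0.25 in the authors' deposited table. In PANC1 the authors' deposited table had CD9 at 0.79 ± 0.07, the α3β1 partner CD151 at 0.40 ± 0.05, SDC3 at 0.61 ± 0.08 and BCAM at 0.88 ± 0.17. On the negative side it listed SDC2 at -2.46 ± 0.10, the dystroglycan gene DAG1 at -1.04 ± 0.06, CD63 at -0.67 ± 0.06 and SDC4 at -0.75 ± 0.07 in the authors' deposited table. The list medians were 0.19 in the mouse and -0.07 in PANC1.

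Of the basement membrane partners of laminins 0 were called positive and 3 negative of 20 in the mouse. In PANC1 4 were called positive and 8 negative of 19. The shares called, 15% and 63.2%, were near those of all genes, 10.4% and 52.5%, and 10 of the 20 mouse genes had a level under 64, where 80.5% of all genes were negative. Mouse Sparc, a matricellular collagen-binding protein, was at -0.85 ± 0.19, Fras1 at -1.47 ± 0.50 and Egflam at -1.44 ± 0.50 in the authors' deposited table. LOXL2, a crosslinking oxidase, was at -1.66 ± 0.07 in the authors' deposited table for PANC1, with SPARC at -1.51 ± 0.08, FBLN1 at -1.17 ± 0.07 and NID1, which ties laminin to collagen IV, at -1.07 ± 0.06. Its paralogue NID2 had the other sign, 3.26 ± 0.39 in the authors' deposited table with a level of 36.0. NTN1, AGRN and NTNG2 had values of 1.10 ± 0.15, 0.65 ± 0.17 and 0.73 ± 0.31 in the authors' deposited table. The list medians were -0.84 in the mouse and -0.41 in PANC1.

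Among integrin ligands other than laminins and collagens, 4 were called positive and 3 negative of 33 in the mouse. In PANC1 8 were called positive and 12 negative of 29. Vcam1, the ligand of α4β1, was at 1.40 ± 0.27 in the authors' deposited table for the mouse, where its receptor gene Itga4 was negative. Tgfb1 was at 1.03 ± 0.22, the osteopontin gene Spp1 at 0.54 ± 0.17 and the nephronectin gene Npnt at 0.51 ± 0.17 in the authors' deposited table, and after recentring the adjusted p by the recomputed Wald test was 0.208 for Spp1 and 0.249 for Npnt. Ccn2, L1cam and Edil3 had values of -0.88 ± 0.17, -1.95 ± 0.56 and -1.06 ± 0.37 in the authors' deposited table. In PANC1 CCN1 and CCN2, ligands of αV and α6 integrins, had values of 1.31 ± 0.06 and 1.22 ± 0.06 in the authors' deposited table, with TNC at 0.85 ± 0.07 and the fibronectin gene FN1 at 0.78 ± 0.14. The E-cadherin gene CDH1, ligand of αEβ7, was at -3.92 ± 0.10, L1CAM at -1.63 ± 0.06, THBS1 at -2.08 ± 0.09 and EDIL3 at -1.94 ± 0.10 in the authors' deposited table. The list medians were -0.29 in the mouse and -0.26 in PANC1.

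**Figure D5:**
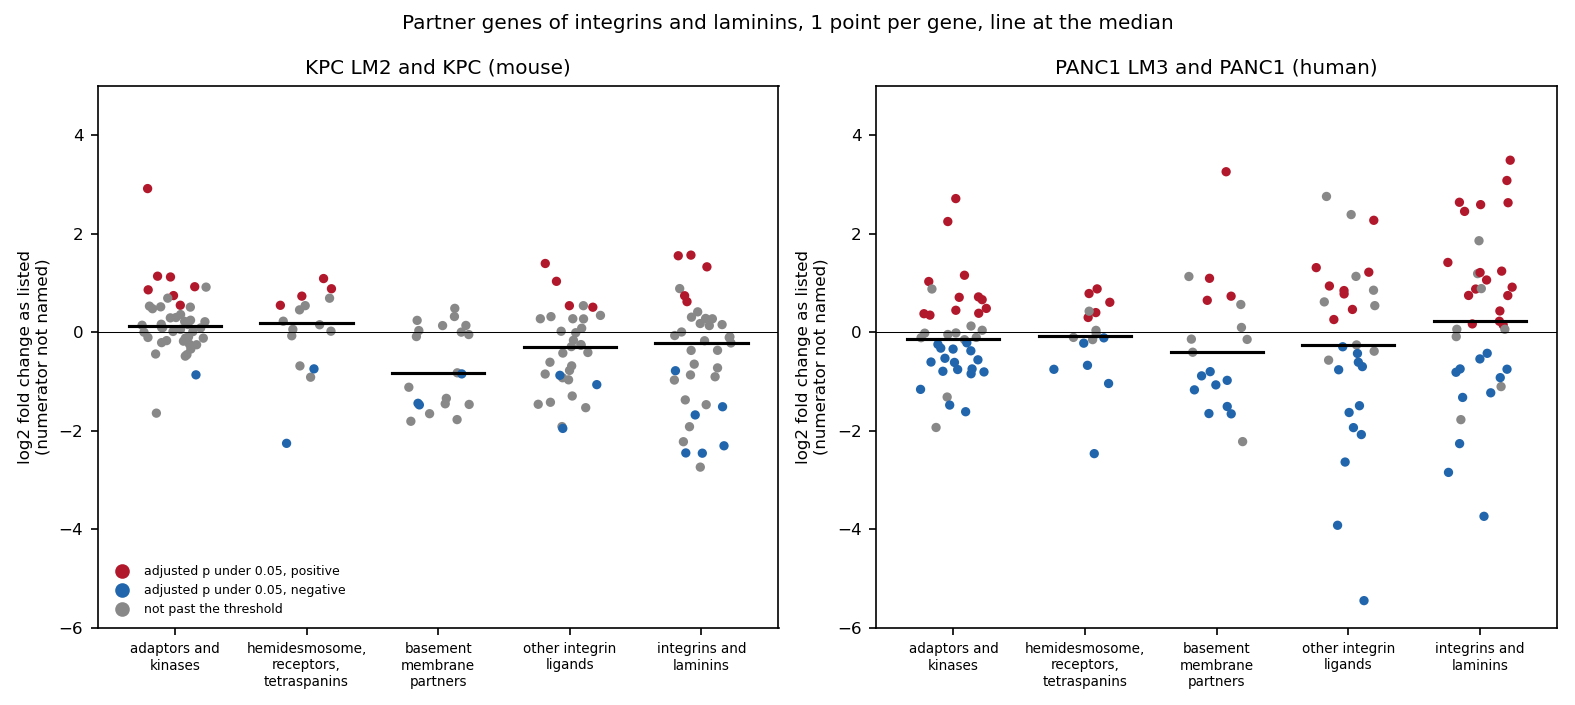
Log2 fold change as listed for each tested gene of the 4 partner lists and for the members (points, red and blue where called), with the median as a line, in the mouse (left) and human (right) table. The basement membrane list has the lowest median in both panels, -0.84 and -0.41.

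Markers of the labelled cell type were present in both tables. All 8 ductal carcinoma markers had a level of 464 or more in the mouse, with 1 called positive and 1 negative. In PANC1 7 of 8 were at 64 or more, 2 were called positive and 5 negative. The positive ones were SOX9 and EPCAM, with 0.70 ± 0.07 and 0.97 ± 0.10 in the authors' deposited table, and KRT7 was not called at 0.09 ± 0.26. The negative ones were MUC1, CDH1 and the keratin genes KRT8, KRT18 and KRT19, the last 3 at -4.35 ± 0.06, -3.35 ± 0.05 and -3.79 ± 0.06 in the authors' deposited table. Platelet, endothelial, fibroblast and hepatocyte markers had median levels from 4.45 to 14.7 in the mouse and from 2.57 to 19.4 in PANC1. Of 31 and 18 such genes tested 1 and 3 were called, beside 10.4% and 52.5% of all genes. Most of these markers had a level under 64, where 8.19% and 23.5% of all genes were called. At a level of 64 or more were mouse Gp1ba, at 71.8, and human COL3A1, COL1A1 and CPS1, at 405, 172.5 and 132. COL3A1 and CPS1 were called, at 1.05 ± 0.11 and -1.45 ± 0.18 in the authors' deposited table. The other calls were human CDH5, at -4.085 ± 0.955 with a level of 9.89, and mouse Col1a1, at -1.835 ± 0.635 with 19.9. The part of these cell types in the values of the integrins and laminins was not tested.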

How the data were processed

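RNA from 12 samples, 3 biological replicates in each of 4 groups, was measured by sequencing. The submitters' processing notes list DESeq2 1.24, MultiQC 1.9, featureCounts 2.0.0 and STAR 2.7.6a as tools. The same notes give hg19 and mm39 as builds. Their settings, the annotation, the strand setting and the model design are not given in the sources used here. Each pair of groups came as 1 comparison table of the authors, with no column of values per library, so a test on counts per library could not be run and the depth per sample is unknown.

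The deposited mean normalised count is a signal that the header does not define, and it is read here as size-factor scaled counts averaged over libraries. The fold changes, with a standard error (SE) for each, were deposited by the authors on the log2 scale. The deposited score, a Wald statistic, equalled the fold change over its SE within 9.17e-08. The p-values deposited by the authors equalled its two-sided normal p within 7.33e-08, and their adjusted values those of Benjamini-Hochberg over 20050 KPC and 17838 PANC1 genes within 2.5e-06.

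A gene is called where the deposited adjusted p is under 0.05. Intervals of 95%, linear folds, counts per list, recentred values and values less a running median over level were computed here with Python 3.11.15, numpy 2.4.6, pandas 2.3.3 and scipy 1.17.1, and figures with matplotlib 3.10.9. In both scaling alternatives the Wald p was recomputed across all genes with the listed SE. The steps were tested on simulated data. Mouse exonic lengths came from GENCODE annotation of GRCm38, another build than mm39, so lengths and names alone were used. The members and gene lists were chosen with earlier results of these data known. Members were named by role, with values for each one called and for its partner chains, and partner genes by the smallest adjusted p, up to 4 per list and sign. Of the members, 1 is counted but its values are not reported here. The motifs searched in promoters were chosen after the values were seen.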

Additional observations from a re-analysis of the deposited data

How the results depend on the processing

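No paired analysis was possible because the tables hold no value per library; for the same reason no replicate could be left out. Each member kept its sign and its side of the threshold when p-values were adjusted over all genes with one, and so did the 18 mouse and 22 human members with a level of 64 or more when these genes were tested alone. At an adjusted p under 0.01 the mouse calls came to 3 positive and 2 negative members, and 8 positive and 3 negative partner genes. With an absolute log2 fold change over 1 they came to 3 positive members and 6 positive and 5 negative partner genes, and in PANC1 to 10 positive and 5 negative members and 9 positive and 17 negative partner genes. Among genes at 64 or more, 1 mouse member and 4 mouse partner genes were called negative. On recentring, the mouse calls came to 3 positive members, and 8 positive and 18 negative partner genes. The 6 members called negative as listed stayed so, and Itgb6, Itgad and Lamc3 were called negative as well. With the level median subtracted the mouse calls came to 3 positive and 3 negative members, and 5 positive and 11 negative partner genes. Of the 9 partner genes called negative as listed, 6 were among the 11.

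Values that changed sign were all of members not called. On recentring these were mouse Itga2 (-0.042), Itgb1 (-0.083), Itga2b (-0.064) and Lama5 (-0.214). With the level median subtracted they were mouse Itga2 (-0.013), Itgb1 (-0.059), Lama5 (-0.229), Itga10 (0.071), Itga11 (0.269), Itgae (0.533) and Itgb8 (0.222), and human ITGAE (-0.07), ITGA11 (-0.048) and LAMB1 (0.001). Recentring added mouse calls for Itgb6, Itgad and Lamc3, at adjusted p-values of 0.0325, 0.0435 and 0.0331 by the recomputed Wald test, where their alternatives reached 0.137, 0.586 and 0.446. The cause was not tested. The median SE was 0.67 for mouse members under 64 and 0.88 for human ones. At that median SE the 95% interval reaches about 2.49-fold and 3.30-fold to each side. The SEs ran from 0.44 to 1.03 in the mouse and from 0.29 to 1.63 in the human table. Some human members under 64 were thus called at smaller differences, such as ITGA1 at 1.84-fold (95% interval 1.23 to 2.75).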
